A study of Mus musculus with 12 samples.

Results

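The 10 genes described here are imprinted growth genes: H19, Igf2, Igf2r, Plagl1, Dlk1, Meg3, Grb10, Peg3, Ndn and Mest. They were chosen by symbol in the gene table, where they take 11 of 40481 gene IDs because Dlk1 is listed under 2 IDs. The second Dlk1 ID held no read in any library and was not tested, so every Dlk1 value refers to ENSMUSG00000040856. The other 10 rows were among the 14271 genes tested.

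Imprinted genes are read from the maternal or the paternal copy only, because methylation set in the egg or the sperm marks 1 of the copies. Many of them act on fetal growth: paternally expressed genes such as Igf2, Dlk1, Peg3, Mest and Plagl1 are mostly linked to growth and maternally expressed genes such as H19, Igf2r and Grb10 mostly to its restraint. Several are high in fetal tissues and fall after birth, and the H19-Igf2 and Dlk1-Meg3 loci are known for roles in the quiescence of blood stem cells. In the mouse, H19, Igf2r, Meg3 and Grb10 are maternally expressed in most tissues, and the other 6 are paternally expressed. The libraries carry no information on which copy was read, so all values are sums over both alleles.

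The study asked how the stage of development bears on what ETV6-RUNX1, a fusion of 2 transcription factors found in childhood B-cell leukemia, does to hematopoietic stem cells (HSCs). Donor mice were either WT or iE/R, the strain in which doxycycline induces the fusion (E/R below), and the promoter that drives it is not given in the sources used here. Bulk RNA was taken from HSCs sorted from E14.5 fetal liver or from bone marrow at 8 weeks of age, which gave WT fetal liver, E/R fetal liver, WT marrow and E/R marrow, with 3 libraries each. All 12 libraries, WT included, came from cells kept for 3 days in an ex vivo expansion culture containing 1 µg/mL doxycycline, so every value is a value after culture. The labels do not say whether the 3 libraries of a group came from separate animals, so p-values measure only the spread between these samples, which may be technical.

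Library totals ranged from 32.3 to 64.5 M reads. Levels are in CPM, reads scaled to the library total, and the detection floor of 3 reads stood at 0.0465 to 0.0928 CPM. Runx1 reads were at 218 to 244 CPM in E/R and 110 to 136 CPM in WT fetal liver, and at 143 to 194 against 86.7 to 105 CPM in marrow. Reads of the fusion and of the mouse gene cannot be told apart. The HSC marker list (14 genes, such as Kit, Procr and Mecom) had no gene at the floor in any group. It summed to 2390 to 2880 CPM in WT and 4900 to 5100 CPM in E/R fetal liver, and to 2680 to 3740 and 3750 to 4230 CPM in marrow, and 12 of the 14 were called between genotypes in fetal liver, 11 of them higher. Sex-linked genes differed between the groups: Xist was at 51.7 to 89.3 CPM in fetal liver and at 0.175 to 1.27 CPM in marrow, and the Y-linked gene Uty was at 9.75 to 18.7 CPM in WT and 41.5 to 47.0 CPM in E/R fetal liver, whose part in the genotype results there was not tested. Source and sex therefore cannot be told apart in any comparison of fetal liver with marrow. Under the deposited scaling the median of all genes tested was 0.08 in fetal liver and 0.13 in marrow for E/R against WT (log2), and 0.01 in both after median-of-ratios scaling. The share of calls that were higher moved with that scaling in marrow, from 74.5% to 53.0%, and with quantile normalization in fetal liver, from 57.6% to 42.0%.

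Markers of other cells were summed in the same way, since H19, Igf2 and Dlk1 are also high in fetal hepatoblasts and stroma. Of 12 hepatoblast markers, Ttr, Serpina1a, Fgb, Apoc3 and Ahsg were at or under the floor in all 4 groups, and albumin (Alb) did not exceed 12 reads in any library. The summed level of that list was lower in fetal liver (17.1 to 22.8 CPM) than in marrow (26.9 to 40.1 CPM) and was mostly Afp. Of its 5 tested genes, 2 were called lower and none higher in E/R in each source. Over all genes tested 18.3% were called lower in fetal liver and 4.93% in marrow. In fetal liver Apoa1 averaged 1.88 CPM in WT and 0.29 CPM in E/R, and Hnf4a 1.24 and 0.134 CPM. Afp was at 15.1 and 15.6 CPM there, and Apoa2 at 0.881 and 1.11 CPM. The 12 mesenchymal markers summed to 5.97 to 11.5 CPM in WT and 8.85 to 16.8 CPM in E/R fetal liver, and to 10.3 to 14.8 CPM in marrow, with 2 to 4 of them at or under the floor in a group. Genes of this list moved in both directions, and of 3 tested, 1 was called higher and 1 lower in E/R fetal liver. Postn averaged 0.629 CPM in WT and 8.34 CPM in E/R fetal liver, and Pdgfrb 5.38 and 0.229 CPM. Erythroid markers (10 genes) summed to 677 to 939 CPM in WT and 1330 to 2060 CPM in E/R fetal liver, with none at the floor in these groups, and to 217 to 473 and 379 to 585 CPM in marrow, and most of it was Hbb-bt. Macrophage markers (10 genes) summed to 35.8 to 56.0 CPM in the WT libraries and 84.0 to 113 CPM in the E/R libraries, with C1qa and Vsig4 at or under the floor in all 4 groups. Nearly all of that sum was Cd68, at 43.5 CPM in WT and 105 CPM in E/R fetal liver and at 42.0 and 89.7 CPM in marrow on average. Endothelial markers (10 genes) summed to 151 to 193 CPM in WT and 232 to 272 CPM in E/R fetal liver, mostly Tie1. Of 8 tested, 3 were called higher and 1 lower in E/R fetal liver, beside 24.8% and 18.3% of all genes tested. Lyve1 averaged 0.515 CPM in WT and 12.4 CPM in E/R fetal liver, and Cdh5 6.36 and 15.5 CPM, while Emcn was at 18.7 and 12.9 CPM. The part of the HSC, hepatoblast, mesenchymal, erythroid, macrophage and endothelial signals in the results that follow was not tested. In bulk samples such as these, fewer cells of a type and less RNA per cell cannot be told apart.

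In fetal liver the fusion went with lower H19, Igf2 and Dlk1 and with higher Plagl1, Mest and Ndn. In marrow Ndn was higher and none of the other 9 genes passed the test. A call means an adjusted p under 0.05 in limma, fitted to log2(CPM + 1) of all genes tested with Benjamini-Hochberg adjustment over them. By that rule 6 of the 10 genes were called in fetal liver, 3 higher and 3 lower, beside a background of 43.1% of all genes (24.8% higher, 18.3% lower). In marrow 1 was called, where the share over all genes was 19.4%, with 14.4% higher and 4.93% lower. Read against these backgrounds, the counts say nothing particular about the set. Plagl1 passed the filter on low values (at least 1 CPM in 3 libraries) only through E/R fetal liver, and Mest only with its E/R libraries (5 E/R and 1 WT library at 1 CPM or more). The filter therefore set the direction of the Plagl1 difference in fetal liver and favoured that of Mest. The counts support no statement about the genes as a group.

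**Figure D1:**
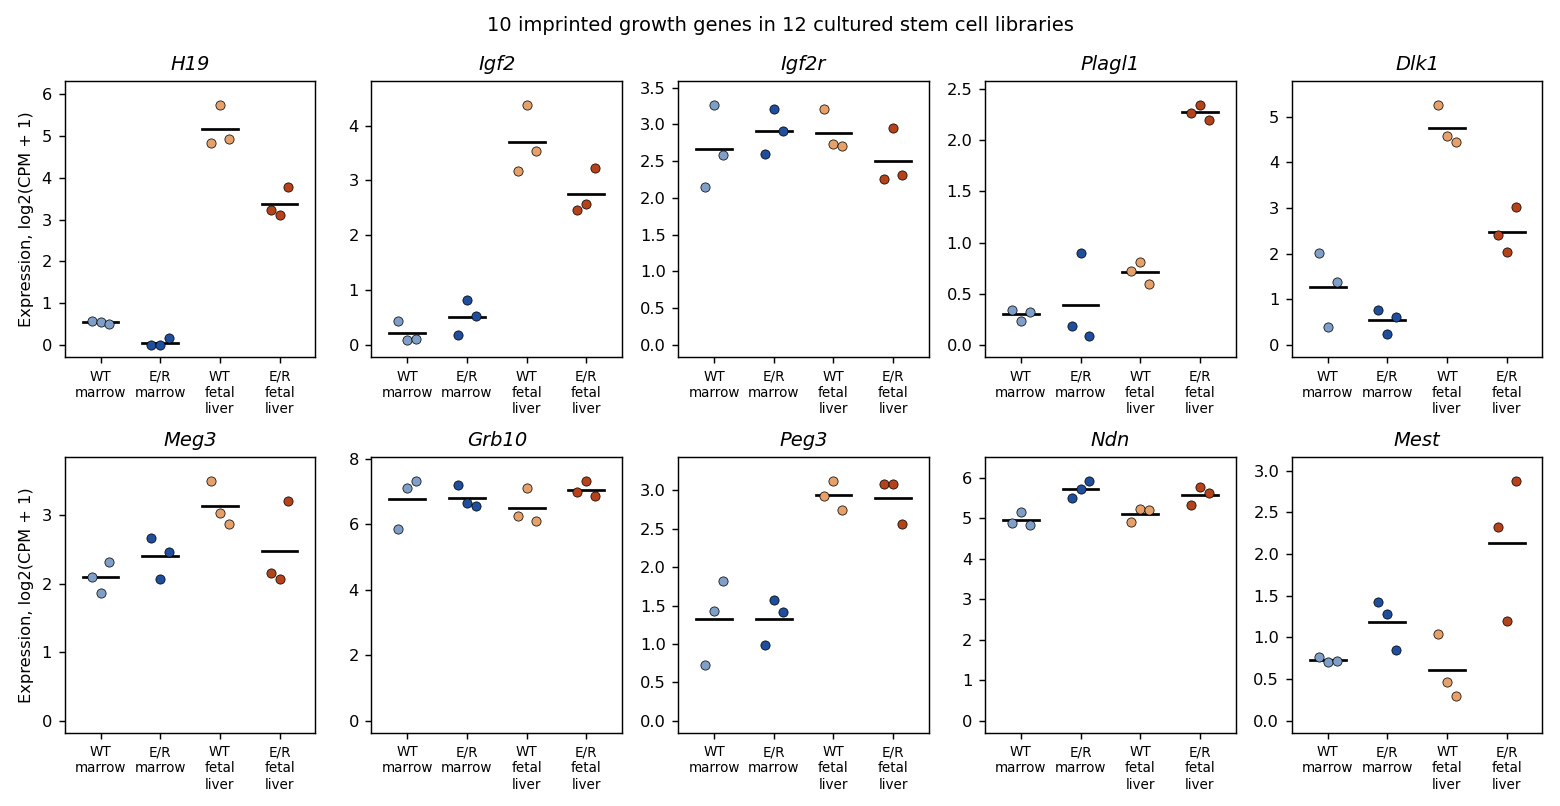
Expression of the 10 genes as log2(CPM + 1) (y axis, a scale per gene) in each of the 12 libraries, by group (x axis). Points are libraries and bars are group means of 3. H19, Igf2, Dlk1 and Peg3 are higher in all 6 fetal liver libraries than in any marrow library, and Plagl1 is higher in the 3 E/R fetal liver libraries than in the other 9.

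Promoters were read from RefSeq (GRCm38.p6) as 250 bases before to 50 after each start site, which gave 16 promoters for 9 of the 10 genes (all but H19). They were searched on both strands for the RUNX core (TGTGGT or TGCGGT), because the fusion carries the DNA-binding part of RUNX1. A RUNX core lay in 4 of the 16 promoters (Dlk1, Igf2, Meg3 and Mest, 1 each), and in 22.4% of all 32851 promoters. The ETS core (CCGGAA) was in 1 of 16 (Meg3, against 14.9% of all), and the 8-letter motif GGGGCCCC that PLAGL1 can bind in 1 of 16 (Peg3, against 1.08%). The element made of TTTC, 2 bases and TTTC that interferon-responsive factors bind was in 1 of 16 (Igf2, against 3.44%). A match is a description of letters and not of binding. The 16 promoters had a median of 13 CpG sites (1 to 45) against 7 over all promoters. Their median GC content was 60.3% (49.7% to 80.0%) against 52.7%. Genes with several promoters count several times in these medians.

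The promoters of 4 genes with a genotype call in fetal liver are shown, 3 with a RUNX core, written in capitals, and 1 without. Among these genes a core stands before the start of Dlk1 and before a start of Igf2, which fell, and after a start of Mest, which rose, and Plagl1, which rose, has none in this window. The other Igf2 and Mest promoters have no core, nor has that of Ndn, which rose. Meg3, which was not called, has a core before a start. Whether position and direction go together was not tested. The core begins 143 bases before the Dlk1 start, 102 bases before this Igf2 start (on the reverse strand) and 27 bases after this Mest start.
Dlk1, chr12:109452573-109452872, plus strand: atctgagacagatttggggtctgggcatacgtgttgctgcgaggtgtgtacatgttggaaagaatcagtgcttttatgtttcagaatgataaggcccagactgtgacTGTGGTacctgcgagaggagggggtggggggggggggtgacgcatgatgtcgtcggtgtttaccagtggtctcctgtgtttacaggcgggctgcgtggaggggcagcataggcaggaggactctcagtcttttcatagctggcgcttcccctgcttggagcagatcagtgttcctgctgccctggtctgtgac
Igf2, chr7:142661222-142661521, minus strand: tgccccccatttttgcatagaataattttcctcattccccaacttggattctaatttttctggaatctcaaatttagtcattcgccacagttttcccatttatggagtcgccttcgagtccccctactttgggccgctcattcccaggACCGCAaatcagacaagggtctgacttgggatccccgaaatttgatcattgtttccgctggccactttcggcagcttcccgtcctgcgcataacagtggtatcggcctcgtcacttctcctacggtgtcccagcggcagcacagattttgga
Mest, chr6:30733256-30733555, plus strand: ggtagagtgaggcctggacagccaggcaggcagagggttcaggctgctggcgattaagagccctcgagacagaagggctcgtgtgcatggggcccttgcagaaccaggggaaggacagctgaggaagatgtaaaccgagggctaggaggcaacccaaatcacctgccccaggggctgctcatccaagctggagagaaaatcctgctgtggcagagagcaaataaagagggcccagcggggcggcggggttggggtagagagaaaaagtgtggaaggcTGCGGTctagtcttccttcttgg
Plagl1, chr10:13090582-13090881, plus strand: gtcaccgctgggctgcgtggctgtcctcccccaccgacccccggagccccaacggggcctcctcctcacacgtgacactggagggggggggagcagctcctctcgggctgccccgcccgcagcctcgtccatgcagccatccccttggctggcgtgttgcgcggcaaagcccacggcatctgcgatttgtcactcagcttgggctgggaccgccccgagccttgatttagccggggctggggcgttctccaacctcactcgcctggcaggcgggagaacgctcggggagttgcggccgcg

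H19 and Igf2 are neighbours on chromosome 7 that compete for the same enhancers: Igf2 encodes a secreted growth factor, and H19 a noncoding RNA made from the other parental copy. H19 (ENSMUSG00000000031) lies at chr7:142575529-142578143, minus strand, and Igf2 (ENSMUSG00000048583) at chr7:142650766-142666816, minus strand (GRCm38). In WT fetal liver H19 was at 27.4, 52.5 and 29.4 CPM, and in E/R fetal liver at 8.45, 7.65 and 12.7 CPM. Each E/R library was below each WT library, and the mean was 3.8-fold lower. The difference was -1.79 ± 0.25 (SE) on the log2(CPM + 1) scale (limma adjusted p = 6.31e-05), and the call held in each of 23 alternative analyses.

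In WT marrow H19 was at 0.495, 0.467 and 0.424 CPM, which were 17 to 26 reads. In E/R marrow it was at 0, 0 and 0.124 CPM, which were 0, 0 and 4 reads. The groups did not overlap, but on the log2(CPM + 1) scale, which compresses such low levels, the difference was -0.49 ± 0.25 (adjusted p = 0.177) and was not called. With a pseudocount of 0.1 it was -2.10 (limma adjusted p = 0.00248), and on the recovered reads it was -3.61 in edgeR (adjusted p = 0.0052) and -3.70 in DESeq2 (adjusted p = 8.64e-05). An exact permutation test on the CPM values gave p = 0.1 in either source, the smallest that 3 libraries against 3 allow.

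The difference between the 2 genotype effects on H19 was -1.30 ± 0.35 (limma adjusted p = 0.0335), with the larger fall in fetal liver. The call was lost without E/R marrow replicate 1 or 3, E/R fetal liver replicate 1 or 2, WT marrow replicate 2 or 3, or WT fetal liver replicate 2 (-1.33 to -1.01, adjusted p from 0.0561 to 0.08). The order also depended on the scale. With a pseudocount of 0.1 the difference of effects was 0.22 (adjusted p = 0.836), and it was 1.59 in edgeR (adjusted p = 0.266) and 1.70 in DESeq2 (adjusted p = 0.178), which puts the proportionally larger fall in marrow.

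Igf2 in WT fetal liver was at 8.02, 19.7 and 10.6 CPM, and in E/R fetal liver at 4.48, 4.94 and 8.37 CPM. The highest E/R library lay just above the lowest WT library, so the groups overlapped. The mean was 2.16-fold lower, and the difference was -0.95 ± 0.30 (limma adjusted p = 0.0205). Igf2 was at 0.362, 0.0584 and 0.0747 CPM in WT marrow and at 0.135, 0.773 and 0.433 CPM in E/R marrow, a difference of 0.30 (adjusted p = 0.514). The fetal liver call was lost in 7 of 22 alternatives, with adjusted p up to 0.178 (DESeq2), among them leaving out WT replicate 2 (-0.61, adjusted p = 0.111), E/R replicate 1 (-0.80, adjusted p = 0.081) and E/R replicate 2 (-0.86, adjusted p = 0.0673). The antisense gene Igf2os, which overlaps Igf2, was at or under 0.157 CPM on average in every group.

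H19 hosts the microRNA miR-675, and Mest hosts miR-335 in an intron. Their mature sequences are shown because they are the small RNAs these transcripts carry, with the seed (bases 2 to 8) in capitals (RefSeq, GRCm38.p6). The seeds all differ. The hairpin entries held 0 reads in all 12 libraries, so the mature forms were not measured here.
mmu-miR-675-5p: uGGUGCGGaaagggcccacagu
mmu-miR-675-3p: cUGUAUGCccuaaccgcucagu
mmu-miR-335-5p: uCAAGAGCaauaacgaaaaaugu
mmu-miR-335-3p: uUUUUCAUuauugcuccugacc

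Igf2r, the receptor that takes up IGF2 for degradation (ENSMUSG00000023830, chr17:12682406-12769664, minus strand), did not pass the test between genotypes in either source. It was at 8.24, 5.67 and 5.55 CPM in WT and 3.76, 6.71 and 3.99 CPM in E/R fetal liver, a difference of -0.38 ± 0.29 (limma adjusted p = 0.311). In marrow it was at 3.43, 8.61 and 4.98 CPM in WT and 5.05, 8.25 and 6.53 CPM in E/R, a difference of 0.24 ± 0.29 (adjusted p = 0.589). All 4 groups overlapped. Its sign in marrow turned with quantile normalization (-0.043). The antisense partner Airn was at 0.064 to 0.304 CPM on average, and whether the counting used the strand is not given in the sources used here.

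Plagl1, a zinc-finger transcription factor that regulates a network of imprinted genes (ENSMUSG00000019817, chr10:13060504-13131694, plus strand), rose in E/R fetal liver. It was at 0.649, 0.753 and 0.512 CPM in WT fetal liver and at 3.82, 4.08 and 3.6 CPM in E/R fetal liver. The E/R libraries lay close together and far above every other library of the study. The mean was 6.01-fold higher, with a difference of 1.56 ± 0.21 (limma adjusted p = 4.82e-05) that was called in each of 22 alternatives. Plagl1 passed the filter only through E/R fetal liver, so this direction was set by the filter and the p-value is no support for it.

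In marrow Plagl1 was at 0.267, 0.175 and 0.249 CPM in WT and at 0.135, 0.866 and 0.0619 CPM in E/R. E/R replicate 2 was the highest marrow library and the other E/R libraries were the lowest 2. The difference was 0.09 ± 0.21 (adjusted p = 0.79), and -0.16 without E/R replicate 2. The fetal liver effect exceeded the marrow effect by 1.47 ± 0.30 (limma adjusted p = 0.00726). That difference was larger but not called with a pseudocount of 0.1 (2.41, adjusted p = 0.0668), in edgeR (2.04, adjusted p = 0.182) and in DESeq2 (2.06, adjusted p = 0.122). The filter, passed through E/R fetal liver alone, favoured this direction too.

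Mest encodes an enzyme-like protein of the alpha/beta hydrolase family (ENSMUSG00000051855, chr6:30723547-30748465, plus strand), and its level varied within groups. It was at 1.06, 0.385 and 0.233 CPM in WT and 4.01, 1.29 and 6.36 CPM in E/R fetal liver. The lowest E/R library was just above the highest WT library. The mean was 6.96-fold higher, with a difference of 1.53 ± 0.34 (limma adjusted p = 0.00245) that was called in each of 22 alternatives. The filter favoured this direction, as described above. In marrow Mest was at 0.705, 0.623 and 0.648 CPM in WT and 1.68, 1.42 and 0.805 CPM in E/R, also without overlap, but the difference of 0.45 ± 0.34 was not called (adjusted p = 0.368). The 3' end of Mest overlaps Copg2 on the other strand, which was at 31.2 CPM in WT and 26.1 CPM in E/R fetal liver on average, so reads from the overlap could count for either gene if strand was not used.

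Dlk1 and Meg3 share a locus on chromosome 12. Dlk1 encodes a membrane protein that acts on Notch signalling and marks immature cells (chr12:109452823-109463336, plus strand), and Meg3 a noncoding RNA from the maternal copy (ENSMUSG00000021268, chr12:109541001-109571726, plus strand). Dlk1 was at 37.3, 22.9 and 20.8 CPM in WT and 4.29, 3.09 and 7.08 CPM in E/R fetal liver. The E/R libraries were all far below the WT libraries, and the mean was 5.61-fold lower. The difference of -2.28 ± 0.37 (limma adjusted p = 0.000229) was the largest of the 10 genes on this scale and was called in each of 23 alternatives.

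In marrow Dlk1 ranged widely in WT, at 3.03, 0.312 and 1.62 CPM, and was at 0.702, 0.185 and 0.526 CPM in E/R. The groups overlapped through WT replicate 2. The difference was -0.72 ± 0.37 (limma adjusted p = 0.181), it was -1.16 without WT replicate 2 (adjusted p = 0.0343), and DESeq2 also called it (-1.998, adjusted p = 0.0424). The difference of the genotype effects, -1.56 ± 0.52, was not called (adjusted p = 0.074), though it was in 5 of 22 alternatives.

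Meg3 did not pass the test in either source. It was at 10.4, 7.21 and 6.37 CPM in WT and 3.45, 3.21 and 8.31 CPM in E/R fetal liver. Of the E/R libraries, 2 lay below all WT libraries and replicate 3 lay among them. The difference was -0.66 ± 0.29 (limma adjusted p = 0.0841), and without E/R replicate 3 it was -1.03 (adjusted p = 0.00685). In marrow it was at 3.28, 2.63 and 4.01 CPM in WT and 5.35, 3.21 and 4.52 CPM in E/R, a difference of 0.31 (adjusted p = 0.488).

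Grb10 encodes an adaptor that dampens insulin and IGF1 receptor signals (ENSMUSG00000020176, chr11:11930508-12038683, minus strand), and was the most abundant of the 10 in reads. It was at 75.3, 137 and 68.3 CPM in WT and 127, 159 and 116 CPM in E/R fetal liver, a difference of 0.57 ± 0.34 (limma adjusted p = 0.191). In marrow it was at 56.7, 137 and 161 CPM in WT and 147, 99.5 and 93.7 CPM in E/R, a difference of 0.04 ± 0.34 (adjusted p = 0.942). The marrow sign turned under other scalings (-0.10 with median-of-ratios), and the WT marrow libraries spanned a wider range than those of any other group.

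Peg3, a zinc-finger protein linked to cell death and maternal behaviour (ENSMUSG00000002265, chr7:6703892-6730431, minus strand), had the smallest genotype differences of the 10 genes. It was at 6.64, 7.73 and 5.72 CPM in WT and 7.44, 7.45 and 4.89 CPM in E/R fetal liver, a difference of -0.03 ± 0.27 (limma adjusted p = 0.938). In marrow it was at 0.648, 1.69 and 2.52 CPM in WT and 0.973, 1.98 and 1.67 CPM in E/R, a difference of 0.00 ± 0.27 (adjusted p = 0.995), and of -0.21 with quantile normalization.

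Ndn encodes necdin, a growth suppressor that binds p53 and E2F1 and is known to hold HSCs in quiescence (ENSMUSG00000033585, chr7:62346569-62350262, plus strand). It was the gene of the 10 called in both sources. In marrow it was at 28.4, 34.3 and 27.4 CPM in WT and 44.2, 51.6 and 59.6 CPM in E/R, with no overlap and a 1.73-fold higher mean. The difference was 0.76 ± 0.17 (limma adjusted p = 0.00699) and was called in each of 23 alternatives. In fetal liver it was at 29.0, 36.2 and 35.7 CPM in WT and 39.0, 53.4 and 48.1 CPM in E/R, again without overlap, with a 1.39-fold higher mean. That difference, 0.46 ± 0.17 (adjusted p = 0.0374), was not called in 11 of 23 alternatives, with adjusted p up to 0.19. They include median-of-ratios scaling (0.39, adjusted p = 0.0855), edgeR (0.38, adjusted p = 0.0974), and leaving out WT replicate 1, 2 or 3 or E/R replicate 2 or 3 (0.36 to 0.52, adjusted p from 0.0538 to 0.141). The genotype effects of the 2 sources differed by -0.30 (adjusted p = 0.44).

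**Figure D2:**
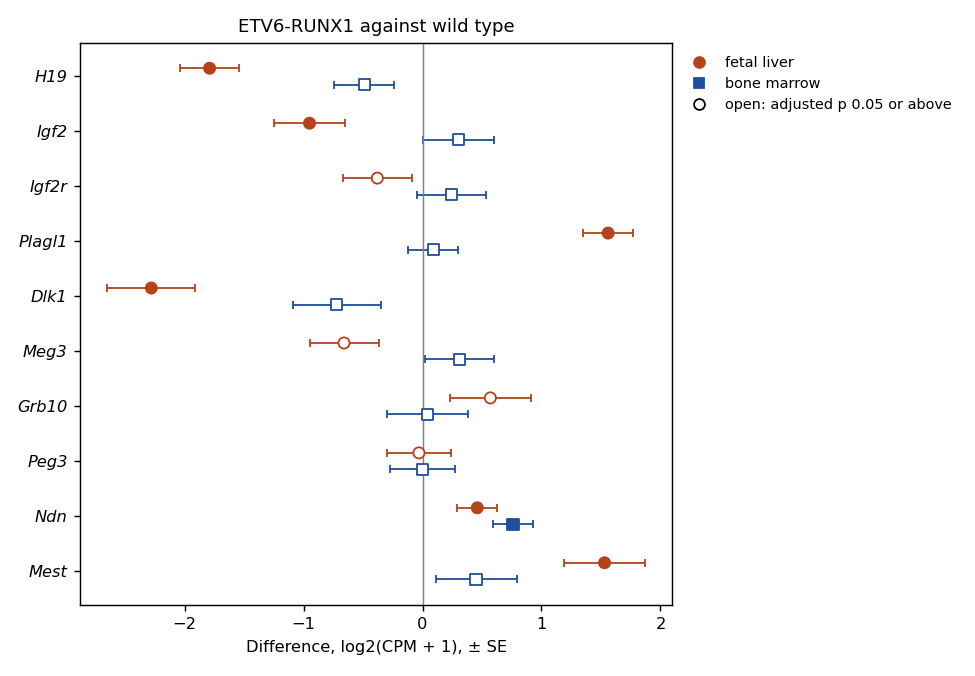
Difference of E/R from WT for each gene on the log2(CPM + 1) scale (x axis), with its standard error, in fetal liver (circles) and marrow (squares), 3 libraries a group. Filled symbols have a limma adjusted p under 0.05. Dlk1, H19 and Igf2 are to the left and Plagl1, Mest and Ndn to the right in fetal liver, and in marrow Ndn alone is filled.

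Both directions were seen among the paternally expressed genes in fetal liver. Of the 6 paternally expressed genes 3 were called higher and 2 lower, with a median difference of 0.22, and of the 4 maternally expressed genes 1 was called lower, with a median of -0.52, beside 0.08 over all genes tested. In fetal liver 24.8% of all genes tested were called higher and 18.3% lower. Counts this small support no contrast between paternally and maternally expressed genes. For the difference between the genotype effects, 2 of the 10 genes were called (H19 lower, Plagl1 higher), where 9.19% of all genes were called, 5.56% higher and 3.62% lower. With Xist as a covariate, 6 of the 10 were again called in fetal liver and 1 in marrow. Xist overlapped between the genotypes in fetal liver (54.4 to 89.3 CPM in WT, 51.7 to 70.1 CPM in E/R), where Uty did not. This covariate therefore cannot decide whether the Y-linked difference bears on the fetal liver calls, which was not tested.

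H19, Igf2, Dlk1, Peg3 and Meg3 were higher in fetal liver than in marrow in WT cells. None of the 10 was lower, and over all genes tested 11.1% were called, 3.38% higher and 7.77% lower. H19 rose from 0.462 ± 0.0361 CPM (SD, n = 3) in marrow to 36.4 ± 14.0 CPM in fetal liver, a difference of 4.62 ± 0.25 (limma adjusted p = 3.2e-08). Igf2 rose from 0.165 ± 0.171 to 12.8 ± 6.14 CPM, by 3.49 ± 0.30 on the log2 scale (adjusted p = 4.55e-06). Neither gene reached 1 CPM in any marrow library. H19, Igf2 and Dlk1 passed the filter only through fetal liver, so the direction of their source differences was set by the filter and their p-values are no support for it.

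Dlk1 was 16.3-fold higher in WT fetal liver than in WT marrow, with a difference of 3.50 ± 0.37 (limma adjusted p = 2.59e-05). Peg3 was 4.14-fold higher, by 1.61 ± 0.27 on the log2 scale (adjusted p = 0.00135). Meg3 was 2.42-fold higher (1.05 ± 0.29, adjusted p = 0.0322), and this call was lost when WT marrow replicate 2 or WT fetal liver replicate 1, 2 or 3 was left out (0.87 to 1.18, adjusted p from 0.0523 to 0.141). Igf2r, Plagl1, Grb10, Ndn and Mest did not pass the test, with differences from -0.27 (Grb10) to 0.41 (Plagl1).

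In E/R cells 6 of the 10 genes were higher in fetal liver and none lower, where 28.6% of all genes were called, 10.4% higher and 18.2% lower. This comparison shares its E/R libraries with the genotype comparisons, so its values are given side by side with them. H19 was higher by 3.32 ± 0.25 (limma adjusted p = 3.44e-07) and Igf2 by 2.24 ± 0.30 (adjusted p = 7.95e-05). Dlk1 was higher by 1.94 ± 0.37 (adjusted p = 0.00139) and Peg3 by 1.58 ± 0.27 (adjusted p = 0.000667). Meg3 was at 0.08 (adjusted p = 0.867). Plagl1 was higher by 1.88 ± 0.21 (adjusted p = 1.57e-05) and Mest by 0.95 ± 0.34 (adjusted p = 0.0491). Plagl1 passed the filter only through E/R fetal liver, so its direction here was set by the filter and its p-value is no support for it. Mest reached 1 CPM in 4 fetal liver and 2 marrow libraries, so the filter favoured this direction for it too. The Mest groups overlapped, and its call was lost in 15 of 22 alternatives. Among these was leaving out any single library except E/R fetal liver replicate 2 or WT fetal liver replicate 1 (0.58 to 1.07, adjusted p from 0.0502 to 0.202). With Xist as a covariate, which nearly separates the sources, none of the 10 genes was called in either genotype (limma), and 2 genes in WT and 40 in E/R were called over the whole table. Source and sex can therefore not be told apart for these genes.

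**Figure D3:**
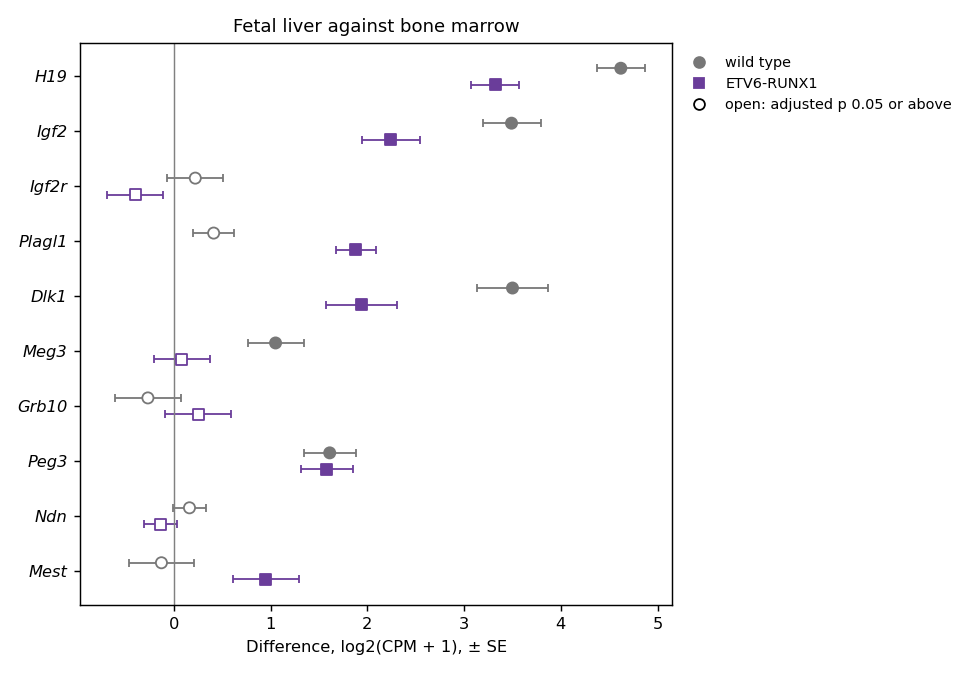
Difference of fetal liver from marrow for each gene on the log2(CPM + 1) scale (x axis), with its standard error, in WT (circles) and E/R cells (squares), 3 libraries a group. Filled symbols have a limma adjusted p under 0.05. H19, Igf2, Dlk1 and Peg3 are filled and to the right in both genotypes, Meg3 in WT alone, and Plagl1 and Mest in E/R alone; the differences between these effects are the interaction values in the text.

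Levels were compared between genes only per length, as CPM per kb of merged exons (GENCODE M21). In WT fetal liver H19 (14.8 ± 5.68, SD, n = 3), Grb10 (10.3 ± 4.18) and Ndn (9.11 ± 1.08) stood highest. Grb10 overlapped both H19 and Ndn, while each H19 library (11.13 to 21.34) was above each Ndn library (7.86 to 9.797). Dlk1 followed at 4.77 ± 1.59 and Igf2 at 2.24 ± 1.07 CPM per kb. Igf2r (0.697 ± 0.163) came next, its lowest library (0.5965) just above the highest of Peg3 (0.503 ± 0.0754, up to 0.5801) and Meg3 (0.442 ± 0.117, up to 0.5737). The libraries of Peg3 and Meg3 overlapped. Mest (0.142 ± 0.112) and Plagl1 (0.0816 ± 0.0155) were lowest, with overlapping libraries. H19 was above 74.6% of all genes tested in WT fetal liver and above 4.5% of them in WT marrow.

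In E/R fetal liver the order was Grb10 (14.7 ± 2.48 CPM per kb), Ndn (12.7 ± 1.97), H19 (3.9 ± 1.101), Igf2 (1.04 ± 0.372), Mest (0.986 ± 0.643) and Dlk1 (0.852 ± 0.362). Igf2, Mest and Dlk1 did not differ beyond their spread. Igf2r, Peg3 and Plagl1 stood near each other at 0.518, 0.495 and 0.490 CPM per kb, and Meg3 was lowest at 0.276. In marrow Grb10 and Ndn were at 13.0 and 8.12 CPM per kb in WT and at 12.5 and 14.0 in E/R, and the other 8 genes were at or under 0.71 CPM per kb in both. Plagl1 was above 2.4% of all genes tested in WT and above 9.6% in E/R fetal liver, so its rise was between low levels.

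**Figure D4:**
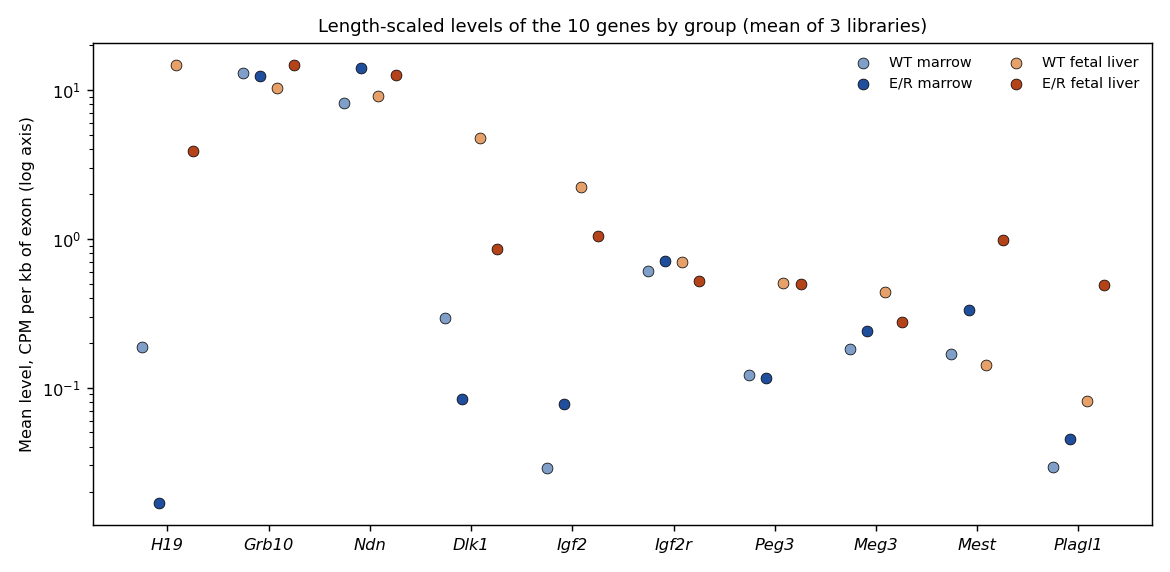
Mean level of each gene in CPM per kb of exon (y axis, log scale) in the 4 groups (colours, mean of 3 libraries each), ordered by the level in WT fetal liver (x axis). Grb10 and Ndn lie between 8.12 and 14.7 in every group, while H19 spans from 0.0168 in E/R marrow to 14.8 in WT fetal liver.

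The genes whose pattern over the 12 libraries was most like that of each member were found by Pearson's r of log2(CPM + 1), as a description without a test. The 4 groups form clusters and the points share their library, so r mostly reflects group levels. For H19 they were Gja4 (r = 0.97), a gap junction protein at 3.95 CPM in WT and 2.80 CPM in E/R fetal liver, and Hk2 (r = 0.967), a hexokinase. For Igf2 they were Chil5 (0.962) and Zcchc3 (0.96), and for Dlk1 Bmp8a (0.97), a secreted factor of the BMP family, and Tm7sf2 (0.96). Plagl1 was matched most closely by Wfdc18 (0.988) and Edem1 (0.984), a protein of endoplasmic reticulum quality control that was at 33.4 CPM in WT and 109 CPM in E/R fetal liver.

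Mest was nearest to Cdkl2 (0.944) and Tpst1 (0.943), Ndn to Acbd4 and Trim47 (0.937 each), and Peg3 to B3gnt7 (0.949) and the coagulation factor gene F10 (0.947). Grb10 was nearest to Dpysl2 (0.949) and Abi2 (0.906), Meg3 to Rogdi (0.882) and Icos (0.878), and Igf2r to Spr (0.809) and Tagap1 (0.77). Within the set the closest pair was H19 and Igf2 (r = 0.98 over 12 libraries), followed by H19 and Dlk1 (0.93).

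Igf2, Igf2r and Grb10 belong to the IGF and insulin pathway, in which the ligands IGF1, IGF2 and insulin signal through IGF1R and INSR to PI3 kinase and AKT. A list of 38 further genes of that pathway held 23 that were tested, of which 10 were called higher and none lower in fetal liver, and 5 higher and none lower in marrow. Over all genes tested 43.1% were called in fetal liver (24.8% higher, 18.3% lower) and 19.4% in marrow (14.4% higher, 4.93% lower). The total number called was near the background, while every call of the list was higher. That split by direction was not tested. The median difference of the 23 was 0.41 in fetal liver, beside 0.08 over all genes tested, and 0.38 in marrow, beside 0.13. The fetal liver count was 6 without E/R replicate 2 or without WT replicate 3 and otherwise stayed within 1.5 times of 10.

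Igf1, the other IGF ligand, moved opposite to Igf2 in fetal liver. It was at 2.68, 6.06 and 2.54 CPM in WT and 90.4, 75.3 and 89.1 CPM in E/R fetal liver. The difference was 4.25 ± 0.29 (limma adjusted p = 6.6e-08). In marrow it was at 3.39, 6.68 and 3.04 CPM in WT and 12.3, 12.6 and 17.8 CPM in E/R, a difference of 1.55 ± 0.29 (adjusted p = 0.00289), so that E/R libraries were above WT libraries in both sources and farther in fetal liver (difference of effects 2.70 ± 0.41, adjusted p = 0.00103). Macrophages are a known source of Igf1, and the macrophage marker sums given above were higher in E/R in both sources and mostly Cd68. Of the 10 macrophage markers only 3 were tested, of which 2 were called higher in E/R fetal liver and 1 in marrow, and none lower. Over all genes tested 24.8% were called higher in fetal liver and 14.4% in marrow. Adgre1 averaged 0.032 CPM in WT and 1.24 CPM in E/R fetal liver, and 0.0635 and 0.696 CPM in marrow. Mrc1 was at 1.47 CPM in WT and 1.25 CPM in E/R fetal liver, and C1qa and Vsig4 were at or under the floor. The part of macrophages in the Igf1 result was not tested.

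The receptor genes, given for their role whatever their values, did not pass the test: Igf1r differed by -0.29 and Insr by 0.42 in fetal liver (limma adjusted p = 0.432 and 0.092). Downstream in fetal liver, Pik3r1, the regulatory subunit of PI3 kinase, rose from 48.0 to 75.2 CPM in WT to 138 to 159 CPM in E/R libraries (1.25 ± 0.17, adjusted p = 4.59e-05). In marrow Grb7, an adaptor of the Grb10 family, was at 0 to 0.0762 CPM in WT and 2.08 to 3.80 CPM in E/R (1.85 ± 0.18, adjusted p = 4.6e-05), and since it passed the filter only through E/R marrow, its direction was set by the filter. Igfbp4, which binds IGFs outside the cell, was at 27.1 to 31.3 CPM in WT and 56.5 to 76.1 CPM in E/R marrow (1.19 ± 0.16, adjusted p = 0.000395). The lipid phosphatase gene Inppl1 was higher there by 0.99 ± 0.22 (adjusted p = 0.00709).

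The IGF2 mRNA-binding proteins, which bind Igf2 and H19 RNA and mark fetal cells, were the pathway genes with the largest differences by source. Igf2bp1 and Igf2bp3 passed the filter only through fetal liver and Insrr only through marrow, so the direction of their source differences was set by the filter. Igf2bp3 was at 52.9, 63.2 and 55.9 CPM in WT fetal liver and at 0.571, 0.915 and 0.996 CPM in WT marrow (5.0 ± 0.22, limma adjusted p = 3.52e-09). It did not pass the test between genotypes in fetal liver, where the E/R libraries were at 54.3, 58.8 and 49.5 CPM. Igf2bp1 was at 11.4 to 24.6 CPM in WT and 41.3 to 59.7 CPM in E/R fetal liver (1.45 ± 0.24, adjusted p = 0.000303), so it rose there while Igf2 and H19 fell. Igf2bp2 was higher in fetal liver than in marrow by 2.44 ± 0.22 in WT (adjusted p = 5.83e-06) and 3.73 ± 0.22 in E/R cells (adjusted p = 3.1e-08). Insrr, an insulin receptor relative, was lower in WT fetal liver than in WT marrow (-1.67 ± 0.24, adjusted p = 0.000372). Of the 23 genes tested in this list, 4 were higher and 2 lower in WT fetal liver against marrow, and 5 and 7 in E/R cells. The shares over all genes tested were 3.38% higher and 7.77% lower in WT, and 10.4% and 18.2% in E/R cells.

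**Figure D5:**
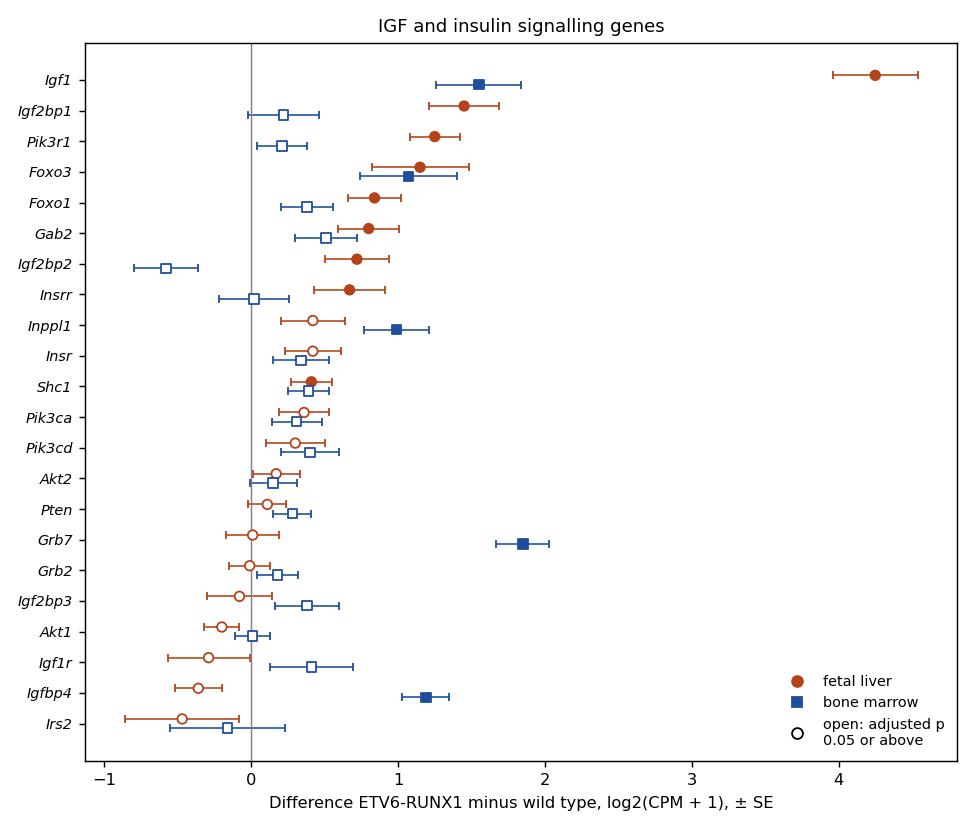
Difference of E/R from WT on the log2(CPM + 1) scale (x axis), with its standard error, for 22 of the 23 IGF and insulin pathway genes tested, in fetal liver (circles) and marrow (squares). Filled symbols have a limma adjusted p under 0.05. Igf1 is farthest to the right in fetal liver at 4.25, and no filled symbol is to the left of 0.

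Other imprinted genes were read from a list of 52 symbols, of which 48 were found and 28 tested. In fetal liver 10 were called higher and 5 lower in E/R, with a median difference of 0.25 (6 and 3 without E/R replicate 2, 5 and 4 without WT replicate 3), and in marrow 3 higher and 2 lower, with a median of 0.13. The numbers called were near the background of 43.1% in fetal liver (24.8% higher, 18.3% lower) and 19.4% in marrow (14.4% higher, 4.93% lower). Slc22a3, an organic cation transporter near Igf2r, was at 95.3, 41.6 and 68.2 CPM in WT and 4.50, 3.52 and 3.06 CPM in E/R fetal liver (-3.82 ± 0.27, limma adjusted p = 8.21e-08). It was also lower in E/R marrow, at 17.5, 24.1 and 15.2 CPM against 55.8, 79.2 and 58.8 CPM (-1.72 ± 0.27, adjusted p = 0.000925), and the fall was larger in fetal liver (difference of effects -2.10 ± 0.38, adjusted p = 0.00341).

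Tspan32, a tetraspanin of blood cells, was at 543 to 615 CPM in WT and 154 to 244 CPM in E/R fetal liver (-1.53 ± 0.16, limma adjusted p = 4.57e-06) and was lower in E/R marrow by 0.82 (adjusted p = 0.00354). Gatm, an enzyme of creatine synthesis, was higher in E/R in both sources, at 105 to 122 against 34.9 to 43.2 CPM in fetal liver (1.53 ± 0.14, adjusted p = 1.32e-06) and at 263 to 317 against 121 to 156 CPM in marrow (1.13 ± 0.14, adjusted p = 0.000247). Cd81, a tetraspanin, was higher in E/R fetal liver by 0.60 ± 0.12 (adjusted p = 0.00137), and Zrsr1, a splicing factor, was higher in E/R marrow by 1.29 ± 0.22 (adjusted p = 0.00152).

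By source, 4 of the 28 were higher and 2 lower in WT fetal liver against marrow, and 6 and 6 in E/R cells (3 and 4 without E/R fetal liver replicate 2). Over all genes tested 3.38% were higher and 7.77% lower in WT, and 10.4% and 18.2% in E/R cells. Peg10, a retrotransposon-derived gene of placental growth, was at 4.22 to 9.56 CPM in WT fetal liver and 0.7999 to 2.02 CPM in WT marrow (1.64 ± 0.31, limma adjusted p = 0.00295). Mcts2 was at 3.70 to 9.06 against 0.629 to 1.32 CPM (1.93 ± 0.29, adjusted p = 0.00052), and it passed the filter only through fetal liver. Phlda2, a maternally expressed restrainer of placental growth, went the other way, at 5.09 to 7.49 CPM in WT fetal liver against 13.0 to 18.3 CPM in WT marrow (-1.25 ± 0.23, adjusted p = 0.00266), and so did Gatm (-1.77 ± 0.14, adjusted p = 2.14e-06). With Xist as a covariate none of these source calls remained, while the fitted differences were larger (6.63 for Peg10, 4.31 for Mcts2, -3.38 for Phlda2 and -3.61 for Gatm, adjusted p from 0.333 to 0.838).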

How the data were processed

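Total RNA of 12 libraries was sequenced as read pairs from a SMARTer stranded kit, per the labels' protocols. The submitters' processing notes name bcl2fastq, STAR 2.5.1a, Subread featureCounts 1.4.6-p5, Salmon 0.8.2, edgeR, limma and GRCm38. Their roles, the annotation and the use of strand are not given in the sources used here. The authors deposited 1 table of CPM (reads scaled to the library total) per gene. In each column 100% of the values were whole multiples of the value of 1 read (tolerance 0.01 reads), so reads were recovered, and the floor of 3 reads covers counting error alone, as no molecular identifiers separate copies of a molecule. Of 40757 entries, 276 repeated gene IDs were dropped.

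Genes that reached 1 CPM in 3 or more of the 12 libraries were tested in limma 3.58.1 (R 4.3.3) on log2(CPM + 1), with 4 group coefficients, a mean-variance trend and 8 residual degrees of freedom, two-sided, with Benjamini-Hochberg adjustment over all 14271 genes and a threshold of 0.05. Fold changes on this scale understate the change of low genes. The 5 comparisons were E/R against WT in each source, their difference, and fetal liver against marrow in each genotype. The fits were tested on simulated data. Alternatives were a pseudocount of 0.1, no filter, a mean of at least 5 CPM, median-of-ratios and quantile scaling, a replicate block, array weights, Xist as a covariate, edgeR 4.0.16 (quasi-likelihood) and DESeq2 1.42.0 on recovered reads, only the 6 libraries compared, and each library left out.

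The members and lists were chosen with earlier results of these data known. Named were all 10 members, per list and comparison up to 4 called genes with the smallest adjusted p, and the 2 nearest genes of each member by Pearson's r, leaving out unnamed gene models. The values of 1 IGF pathway gene that this rule names are not reported here. Positions and lengths come from GENCODE M21, in which 99.65% of the gene IDs were found.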

Additional observations from a re-analysis of the deposited data

Results flagged for a closer look

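The genotype effect differed between fetal liver and marrow, by the interaction term in limma (adjusted p under 0.05 over all genes tested), for 2 of the 10 imprinted growth genes, beside 9.19% of all genes tested. For H19 the fetal liver effect minus the marrow effect was -1.30 (adjusted p = 0.0335), and for Plagl1 it was 1.47 (adjusted p = 0.00726). Plagl1 passed the filter on low values only through E/R fetal liver. Neither was called on the recovered reads, and for H19 the sign turned there. The H19 call was also lost when any of 7 single libraries was left out.

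Among the genes named from the lists, the same term was called for 9. In the IGF pathway it was -1.83 for Grb7, which rose in marrow and was at or near 0 in fetal liver (it passed the filter only through E/R marrow), -1.54 for Igfbp4, 2.70 for Igf1 and 1.04 for Pik3r1. Among other imprinted genes it was -2.10 for Slc22a3 and -0.83 for Tssc4, which was at 63.3 to 82.2 CPM in WT and 49.1 to 66.8 CPM in E/R fetal liver, and at 66.6 to 76.6 and 93.6 to 103 CPM in marrow. Among genes that maintain imprints it was -0.90 for Cbx3 and -0.70 for Cbx1, both HP1 proteins of silent chromatin, and 1.25 for Daxx, a histone chaperone. The terms of Tssc4, Cbx3, Cbx1 and Daxx lost their call in 6 or more alternatives, with adjusted p up to 0.0891, 0.0972, 0.123 and 0.127. Groups of 3 libraries were not screened for single outlying samples.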

How the results depend on the processing

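Among the 50 values of the 10 genes, 1120 alternatives were computed, of which 989 kept direction and side of the threshold, 59 lost a call, 22 gained one and 50 turned in sign. A further 20 could not be given because the gene was not tested under that setting. Where a result changed, the cause was not tested. With a mean of at least 5 CPM, which drops Igf2, Plagl1, Peg3 and Mest, the numbers of the 10 genes called were 3 in fetal liver (E/R against WT), 1 for the difference of effects, and 3 and 2 by source in WT and E/R. In marrow 2 were called with a pseudocount of 0.1 or in edgeR and 3 in DESeq2. For the difference of effects 0 were called with a pseudocount of 0.1, in edgeR and in DESeq2, 1 with no filter or Xist as a covariate, 4 with quantile normalization and 5 with array weights. With Xist as a covariate 0 were called by source in both genotypes.

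Over all genes, 2763 called in marrow became 1601 with only the 6 libraries compared. The 1311 calls for the difference of effects became 767 with no filter, 3637 with array weights and 669 with Xist as a covariate. By source, 1591 calls in WT became 4401 with array weights and 2 with Xist as a covariate, and 4088 in E/R became 40 with Xist as a covariate. The share of higher calls moved by over 10 points under median-of-ratios scaling also for the difference of effects (60.6% to 73.8%) and by source (WT 30.3% to 40.7%, E/R 36.3% to 57.7%).

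Leaving out 1 library gave 4 to 6 of the 10 genes called in fetal liver, 1 to 2 in marrow, 1 to 5 (without E/R fetal liver replicate 3) for the difference of effects, and 4 to 5 and 5 to 6 by source in WT and E/R. Over all genes the ranges were 4666 to 6638, 1520 (without E/R marrow replicate 2) to 2924, 731 to 2332 (without WT marrow replicate 1), 868 to 2781 (without WT marrow replicate 1) and 2831 to 4611. For the difference of effects, 847 genes were called without E/R fetal liver replicate 1, 731 without WT marrow replicate 2 and 766 and 737 when WT fetal liver lost replicate 2 or 3. By source in WT, 868 were called when WT marrow lost replicate 2 and 904 when WT fetal liver lost replicate 3.

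With a replicate block the numbers called among the 10 were 6, 1, 2, 5 and 5 (6, 1, 2, 5 and 6 without it), with 5838, 2334, 1033, 1425 and 3739 genes (comparisons in the order above). It ended the H19 call for the difference of effects (adjusted p = 0.0527), where Dlk1 was called instead (adjusted p = 0.0425), and the Mest call by source in E/R (adjusted p = 0.0524). Deviations from the group means gave no sign that replicate numbers pair the samples. Of 18 same-number pairs of libraries 7 correlated above 0.1 (-0.442 to 0.39), and of 36 different-number pairs 14 did (-0.495 to 0.656). With 3 libraries a group, these correlations cannot decide whether libraries shared an animal or a culture.

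Signs turned as follows, with leave-one-out ranges last. H19, difference of effects: 0.22 (pseudocount 0.1), 1.59 (edgeR), 1.70 (DESeq2). Igf2r in marrow: -0.043 (quantile), -0.075 (array weights), -0.016 to 0.543. Grb10 in marrow: -0.10 (median-of-ratios), -0.022 (quantile), -0.18 (array weights), -0.14 (Xist), -0.20 (edgeR), -0.19 (DESeq2), -0.41 to 0.329. Peg3 in marrow: -0.069 (median-of-ratios), -0.21 (quantile), -0.25 (array weights), -0.19 (edgeR), -0.18 (DESeq2), -0.30 to 0.249. Peg3 in fetal liver: -0.125 to 0.14. Peg3, difference of effects: 0.24 (array weights), 0.075 (edgeR), 0.087 (DESeq2), -0.28 to 0.27. Plagl1 in marrow: -0.16 to 0.243. By source in WT: Igf2r -0.094 (array weights), -0.037 to 0.522, Grb10 -0.728 to 0.014 and Mest -0.344 to 0.026. By source in E/R: Meg3 -0.14 (array weights), -0.29 to 0.283, Ndn 0.019 (median-of-ratios), 0.008 (edgeR), 0.013 (DESeq2). With Xist as a covariate, by source in WT: Meg3 -0.98, Ndn -1.29, Mest 2.11, Igf2bp2 -0.51, Insrr 0.07. With Xist as a covariate, by source in E/R: Igf2 -0.30, Igf2r 0.99, Meg3 -1.77, Grb10 -1.91, Slc22a3 3.10.

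Depth limits the low genes: Plagl1 rested on 2 to 45 reads per library outside E/R fetal liver, and H19 in E/R marrow on 0 to 4. The nearest genes were checked under 3 other scales, chosen after seeing the data, and each r moved by less than 0.1.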

Other observations

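Genes that maintain imprints were read from a list of 25, of which 21 were tested. In fetal liver 6 were higher and 4 lower in E/R, and in marrow 3 were higher and none lower, with medians of 0.13 and 0.07 (log2), where 43.1% and 19.4% of all genes tested were called. With median-of-ratios scaling the marrow count was 1 higher and 4 lower, and without E/R replicate 2 it was 1 and 0. Daxx was at 50.6 to 61.6 CPM in WT and 149 to 342 CPM in E/R fetal liver (2.07 ± 0.25, limma adjusted p = 1.65e-05), and higher by 0.82 in marrow (adjusted p = 0.0314), a call lost in 8 of 23 alternatives, among them leaving out E/R marrow replicate 2 or 3 or WT marrow replicate 1 or 3 (adjusted p up to 0.122 over all). The heterochromatin protein gene Cbx1 was at 221 to 280 CPM in WT and 137 to 154 CPM in E/R fetal liver (-0.83 ± 0.13, adjusted p = 0.000192). Arid4a and Arid4b, related chromatin factors linked to imprint control, were both higher in E/R fetal liver (0.86 and 0.66, adjusted p = 0.000235 and 0.00121). Zfp57, which guards imprint methylation in the early embryo, was lower in WT fetal liver than in WT marrow, at 6.08 to 9.62 against 19.8 to 29.0 CPM (-1.61 ± 0.23, adjusted p = 0.000416), and the de novo methyltransferase genes Dnmt3a and Dnmt3b were higher there (0.97 and 0.69, adjusted p = 0.00264 and 0.0096). Zfp57 did not pass the test between genotypes in either source.

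Genes within 500 kb of the members were counted after seeing the data. Near Igf2r 11 genes were tested, and 6 were lower and 1 higher in E/R fetal liver, where Igf2r itself was not called and 18.3% of all genes tested were lower and 24.8% higher. The lower ones were Slc22a3, Mrpl18, Tcp1, Acat3, Acat2 and Sod2, with differences from -3.82 (Slc22a3) to -0.67 (Sod2), and 4 of the 11 were lower in marrow, where 4.93% of all genes were. Near H19 14 genes were tested, of which 5 were higher and 5 lower in fetal liver. Dusp8, a phosphatase that acts on stress kinases, rose there from 0.168 to 6.46 CPM on average (2.67, limma adjusted p = 6.71e-05), while Igf2, Mrpl23 and Tspan32 were lower. Dusp8 averaged 0.145 CPM in WT and 1.66 CPM in E/R marrow and passed the filter only through E/R libraries, so its direction was set by the filter. The same held for Prr33 (0.2 CPM in WT and 1.29 CPM in E/R fetal liver), also called higher. Tnnt3 (0.444 and 1.13 CPM), called higher too, passed only with E/R libraries, which favoured its direction. Near Plagl1, Utrn and Stx11 were also higher in E/R fetal liver (1.57 and 1.85), and Sf3b5, Ltv1 and Adat2 were lower.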
